A study of Mus musculus with 11 samples.

Results

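Taar6, Taar7a, Taar7b, Taar7d, Taar7e and Taar7f encode trace amine-associated receptors (TAARs), and their transcripts were measured by RNA-seq in the whole main olfactory epithelium (MOE), the nasal tissue that holds the olfactory sensory neurons (OSNs). They were chosen by symbol, as 6 of the 24421 entries of the raw count table and 6 of the 14 olfactory Taar genes. The mice carried the olfactory Taar cluster, Taar2 to Taar9, on both chromosomes (wild type, n = 3), on 1 chromosome (heterozygous Taar2-9 cluster knockout, n = 4) or on neither (homozygous Taar2-9 cluster knockout, n = 4), and received no treatment. All 11 libraries were labelled as C57BL/6 and as postnatal day 1 to 2, whereas the reporting summary of the study gives an older age and a mixed C57BL/6J and 129 background for this line, which was not settled here. The deletion is present in every cell of the animal, and it takes away all 6 genes together with the other olfactory Taar genes, so no effect of 1 receptor can be read from it. The labels name no litter, sex or pool of animals, and p-values measure only the spread between these libraries.

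TAARs are G protein-coupled receptors that detect volatile amines, and an OSN that uses one of them expresses few or no odorant receptor (OR, Olfr) genes. Most olfactory Taar genes are used in the dorsal zone of the MOE. Taar6, Taar7a and Taar7b have been described as used more ventrally. The probe list of the study gives Taar7a and Taar7b as ventral, Taar7e and Taar7f as dorsal, and both Taar6 and Taar7d as used in either zone. Taar7 is a group of near-identical gene copies, and Taar6 lies next to it as a single gene.

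The 6 genes lie side by side on mouse chromosome 10 (mm10), within 65978 bases, and each is a single exon in the GENCODE annotation. Taar6 (ENSMUSG00000045111.5) runs from 23984609 to 23985646 and Taar7a (ENSMUSG00000095647.1) from 23992405 to 23993481, both on the minus strand. On the plus strand follow Taar7b (ENSMUSG00000095171.1) from 23999939 to 24001015, Taar7d (ENSMUSG00000095569.1) from 24027222 to 24028298, Taar7e (ENSMUSG00000100689.1) from 24037614 to 24038690 and Taar7f (ENSMUSG00000100950.1) from 24049510 to 24050586. Taar6 and Taar7a are separated by 6758 bases and Taar7a and Taar7b by 6457 bases. A wider gap of 26206 bases, which holds the pseudogene Taar7c-ps, lies between Taar7b and Taar7d. The gaps from Taar7d to Taar7e and from Taar7e to Taar7f are 9315 and 10819 bases. These gene models hold coding sequence only, of 1038 bases for Taar6 and 1077 bases for each Taar7 gene including the stop codon. Reads on untranslated parts of the transcripts could not be assigned through them. The annotation used for the counting is not given, so whether such reads were counted is not known.

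How far the counts of single Taar7 genes can be told apart depends on their sequences. Any pair of the 5 Taar7 coding sequences was 91.7 to 95.4% identical (10 pairs), with Taar7e and Taar7f the closest pair. Taar6 was 68.7 to 69.6% identical to them and 78.5% identical to Taar8b, its closest relative. Of the 1077 aligned Taar7 positions, 140 (13.0%) varied among the 5 genes, and the longest run without a difference was 77 bases. The first 60 coding bases differed most, at 31 positions. They are shown because each occurs in no other Taar gene and because the genes are unequally far apart there. Taar7a differed from the other 4 at 22 to 28 of these positions, whereas Taar7d and Taar7e differed from each other at 1, coding base 26. Capitals mark the positions at which the 5 genes are not all alike, and each is written 5′ to 3′ on the strand of the gene.
Taar7a (chr10:23993422-23993481, minus strand): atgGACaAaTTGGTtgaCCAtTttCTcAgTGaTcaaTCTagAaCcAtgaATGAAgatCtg
Taar7b (chr10:23999939-23999998, plus strand): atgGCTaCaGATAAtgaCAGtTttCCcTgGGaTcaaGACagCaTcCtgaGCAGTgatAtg
Taar7d (chr10:24027222-24027281, plus strand): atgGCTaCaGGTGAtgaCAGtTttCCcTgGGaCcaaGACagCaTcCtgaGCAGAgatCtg
Taar7e (chr10:24037614-24037673, plus strand): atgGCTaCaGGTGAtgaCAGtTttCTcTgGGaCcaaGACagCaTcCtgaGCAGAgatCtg
Taar7f (chr10:24049510-24049569, plus strand): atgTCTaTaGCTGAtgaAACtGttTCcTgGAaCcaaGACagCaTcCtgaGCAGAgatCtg

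At the other extreme, coding bases 688 to 747 were the same in all 5 genes and in Taar7c-ps. This stretch is shown because a read that falls within it cannot be given to 1 Taar7 gene. In Taar7a it lies at chr10:23992735-23992794 and in Taar7f at chr10:24050197-24050256.
Shared by the 5 Taar7 genes: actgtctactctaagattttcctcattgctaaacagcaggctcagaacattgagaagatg

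The next stretch is shown because it is one where Taar6 can be aligned with all Taar7 genes without a gap and they vary little. Among the Taar7 genes it has 1 variable position, marked by a capital, at which Taar7a and Taar7b hold the same base and Taar7d, Taar7e and Taar7f another. Capitals in the Taar6 line mark its 10 differences from Taar7a, and this Taar6 stretch occurred in no other Taar gene.
Taar7a (chr10:23993293-23993352, minus strand): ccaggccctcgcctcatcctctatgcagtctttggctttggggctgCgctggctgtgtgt
Taar7d (chr10:24027351-24027410, plus strand): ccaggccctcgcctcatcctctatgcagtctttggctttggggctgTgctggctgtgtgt
Taar6 (chr10:23985503-23985562, minus strand): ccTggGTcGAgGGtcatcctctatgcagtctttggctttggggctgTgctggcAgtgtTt

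Over the whole coding sequence, 100% of the 51-base stretches of Taar6 occurred in no other Taar gene. This share was 71.1% for Taar7d, 62.6% for Taar7a, 60.3% for Taar7b, 49.4% for Taar7f and 46.8% for Taar7e. With stretches of 101 bases it was 100% for Taar6 again and 67.1 to 90.7% for the Taar7 genes, with Taar7e and Taar7f the lowest. How the counting treated reads with several positions is not given in the sources used here, so the counts of single Taar7 genes are uncertain, those of Taar7e and Taar7f the most, and the sum over Taar7 is given beside them. The 250 bases before the start codons were less alike than the coding sequences. In these windows Taar7d, Taar7e and Taar7f were 73.7 to 83.4% identical to each other, whereas any other pair of the 6 genes was 46.8 to 57.2% identical.

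**Figure D1:**
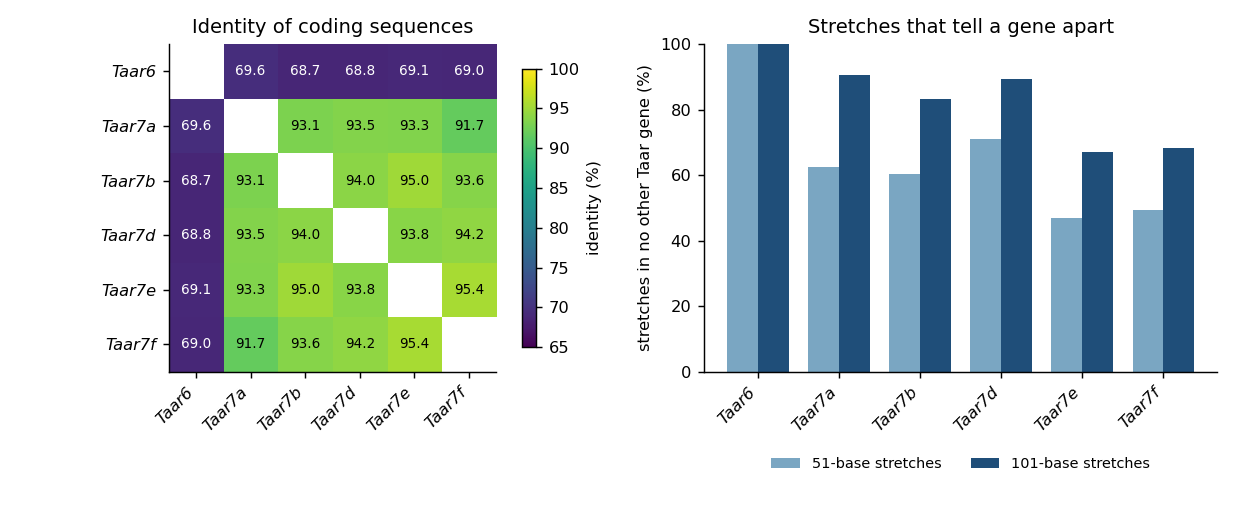
Likeness of the 6 genes. Left, percent identity of each pair of coding sequences, with values from 68.7 to 95.4. Right, percent of all 51-base (light bars) and 101-base (dark bars) stretches of a coding sequence that occurred in no other Taar gene. Taar6 is at 100% for both lengths, and Taar7e and Taar7f have the lowest bars, at 46.8 and 49.4% for 51 bases.

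The libraries held 9239866 to 14632525 counts. On the first principal component (41.6% of the variance) they formed 2 sets that cut across genotype. Wild type replicate 3, heterozygous replicates 1 and 2 and homozygous replicates 3 and 4 made up set 2, and the remaining 6 libraries set 1. The summed level of 7 genes of mature OSNs (Gnal, Adcy3, Cnga2, Ano2, Rtp1, Rtp2, Omp), which carry out odour transduction and receptor transport, was 1229 to 2183 CPM in wild type, 1334 to 1871 in heterozygous and 1218 to 1528 in homozygous libraries. The means of this sum were 1752, 1560 and 1428 CPM, and each of the 7 genes had a lower mean in both knockout genotypes than in wild type. For 0 of these 7 genes was an unadjusted or adjusted p-value under 0.05 in any comparison (edgeR). Of 7 skeletal muscle markers, heterozygous replicate 4 held 1535 CPM in sum against 6.21 to 52.8 CPM in wild type libraries. Homozygous replicates 1, 2 and 3 (113, 384 and 718 CPM) and heterozygous replicate 2 (515 CPM) were also above every wild type library. Each of these 7 markers had an unadjusted p-value under 0.05 in at least 1 comparison. The part of this in the results below was not tested.

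Transcripts of all 6 genes were found in each wild type library, at low counts. In replicates 1 to 3 of the wild type, Taar6 gave 21, 11 and 32 counts, and it was the most abundant of the 6 in replicates 1 and 3. Taar7e had 13, 14 and 13 counts and Taar7f 9, 11 and 9, which is nearly the same in each library. Taar7d was also even, with 6, 7 and 8 counts. By contrast Taar7a had 12, 7 and 6 counts, highest in replicate 1, and Taar7b had 3, 6 and 16, highest in replicate 3. These 3 genes spread more among wild type libraries (SD of 0.860 CPM for Taar6, 0.342 for Taar7a and 0.536 for Taar7b) than Taar7d, Taar7e and Taar7f (0.0504, 0.0776 and 0.0795 CPM). CPM is the count scaled to a common library size after TMM scaling. No test of this difference in spread was made.

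Per kb of coding sequence, the order of wild type levels was Taar6 (1.74 ± 0.828 CPM per kb, SD, n = 3), Taar7e (1.05 ± 0.0720), Taar7f (0.756 ± 0.0739), Taar7a (0.668 ± 0.318) and Taar7b (0.635 ± 0.498), followed after Taar5 and Taar2 by Taar7d (0.546 ± 0.0468). Taar5 (0.625 ± 0.424 CPM per kb) and Taar2 (0.566 ± 0.307) were the highest of the other olfactory Taar genes. Neighbours in this order overlapped between libraries, with the exception of Taar7e, which lay above Taar7f in 3 of 3 libraries and did not overlap it. The exact two-sided permutation p-value for that pair was 0.1, the smallest that 3 against 3 libraries can give. Both genes were measured in the same 3 libraries, and this test leaves that pairing out. Taar7e and Taar7f are also the pair that shares the most sequence. OR genes had a median of 0.232 CPM per kb of exon in the same libraries (1114 genes with a length). Taar6 was higher than 98.0% of them, with 22 OR genes above it, and Taar7e, Taar7f, Taar7a, Taar7b and Taar7d were higher than 93.2, 88.4, 85.5, 84.1 and 80.3%. In the GENCODE models that gave the lengths, exons of many OR genes include untranslated parts and those of the 6 genes do not. The scales differ in this respect, and the annotation used for the counting may have held other lengths.

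**Figure D2:**
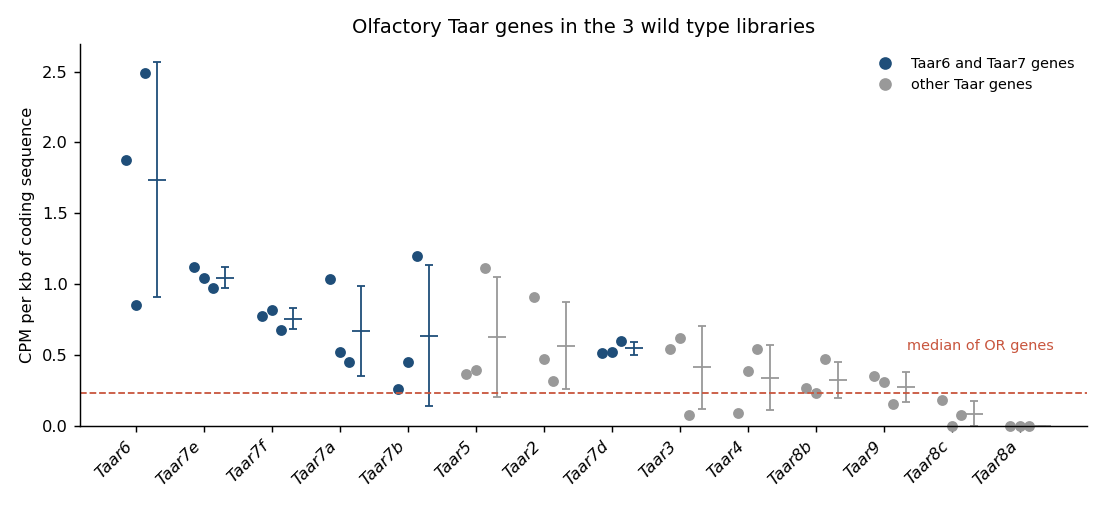
Levels of the 14 olfactory Taar genes in wild type MOE, in CPM per kb of coding sequence, ordered by their mean. Points are the 3 wild type libraries, and the bar beside them is the mean ± SD. The 6 genes (blue) take the first 5 places and the eighth, with wide spread for Taar6, Taar7a and Taar7b and narrow spread for Taar7d, Taar7e and Taar7f. The dashed line is the median of OR genes, 0.232 CPM per kb.

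To examine the 6 genes where the cluster is absent, the homozygous libraries were compared with the others. All 6 genes had 0 counts in each of the 4 homozygous libraries, apart from 1 count of Taar7d in replicate 1. A count of 0 allows up to 3 counts per library, on average 0.264 CPM. Summed over the 6 genes, homozygous libraries held 1 count in all against 204 in wild type and 165 in heterozygous libraries.

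The summed level was 5.93, 4.49 and 6.78 CPM in wild type replicates 1 to 3. It was 3.54, 3.84, 4.17 and 2.14 CPM in heterozygous replicates 1 to 4, and 0.0841, 0, 0 and 0 CPM in homozygous replicates 1 to 4. Each homozygous library lay far below every library with an intact cluster. The sum in homozygous mice was 0.367% of wild type, and on pooled counts it was 265-fold lower (95% counting interval 47.0 to 10517). As 1 feature in the edgeR quasi-likelihood fit, the sum passed the test against wild type (adjusted p-value 3.52e-04) and against heterozygous libraries (adjusted p-value 0.00114). Against heterozygous libraries it was 161-fold lower (28.6 to 6412). Homozygous mice carry no copy of the 6 genes, so their values show the absence of the genes and not a regulated level. For heterozygous mice, fewer cells of a type and less RNA per cell cannot be told apart in bulk tissue.

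The sum over the 5 Taar7 genes, which depends less on how shared reads were divided, was 3.93 ± 0.299 CPM in wild type, 2.38 ± 0.756 in heterozygous and 0.0210 ± 0.0421 in homozygous libraries. It passed the edgeR test against wild type (adjusted p-value 0.00152) and against heterozygous libraries (0.00513). The latter call was lost with the replicate number as a block (adjusted p-value 0.0712) and in a fit of these 2 genotypes alone (0.0673). Taar6, which has no near-identical copy, had 0 counts in 4 of 4 homozygous libraries and was lower by a factor of at least 6.82 than in wild type (1.80 ± 0.860 CPM, n = 3) and of at least 3.93 than in heterozygous libraries (1.04 ± 0.265 CPM, n = 4). The bound takes 3 counts in each homozygous library.

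Of the Taar7 genes at 0 in every homozygous library, Taar7e was at least 4.26-fold, Taar7f at least 3.08-fold, Taar7a at least 2.72-fold and Taar7b at least 2.58-fold below wild type. Against heterozygous libraries these bounds were 2.44-fold for Taar7f, 1.68-fold for Taar7a and 1.54-fold for Taar7e. For Taar7b, whose heterozygous mean of 0.235 CPM lies under the floor, no fold is given. The Taar7b bound against wild type rests largely on wild type replicate 3 (1.29 CPM, against 0.278 and 0.481 CPM in replicates 1 and 2). On pooled counts Taar7d, with its 1 count, was 27.3-fold lower than in wild type (4.39 to 1128). Against heterozygous libraries it was 30.3-fold lower (5.05 to 1236). These ratios are not bounds, so they cannot be set against the folds of the genes at 0. The homozygous mean of Taar7d, 0.0210 CPM, also lies under the floor of 0.264 CPM. In edgeR without the low-count filter, the log2 fold change against wild type was -4.24 for Taar7d and -7.42 for Taar6.

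Groups did not overlap for 6 of 6 genes between homozygous and wild type libraries, which was so for 2.48% of the 16574 tested genes in that direction. Only Taar6, Taar7e and Taar7f are among those tested genes, since the other 3 did not pass the filter on low counts. Between homozygous and heterozygous libraries 5 of 6 did not overlap, against 0.302% of tested genes. The exception was Taar7b, with 0 counts in heterozygous replicate 4. Exact two-sided permutation p-values of the genes without overlap were 0.0571 against wild type and 0.0286 against heterozygous libraries, the smallest that these group sizes can give.

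As single genes, 3 of the 6 (Taar6, Taar7e and Taar7f) passed the filter on low counts and were tested, and only their intact groups could bring them past it. None of the 3 passed the threshold after adjustment over all tested genes in edgeR, and 0% of all tested genes did. Against wild type the adjusted p-values were 0.173 for Taar6, 0.185 for Taar7f and 0.195 for Taar7e. Against heterozygous libraries they were 0.272 for Taar6, 0.272 for Taar7f and 1.0 for Taar7e. Unadjusted p-values were under 0.05 for all 3 in both comparisons, where 1.21% (against wild type) and 0.241% (against heterozygous) of tested genes were lower at that level. DESeq2, which tested all 6 genes, called 4 against wild type (Taar6, Taar7a, Taar7e and Taar7f) and 2 against heterozygous libraries (Taar6 and Taar7f), where it called 0.0371 and 0.00927% of all 21582 genes it tested. With OR counts as the library size, edgeR called Taar6 against wild type, and 0.00603% of tested genes. For Taar6, the DESeq2 adjusted p-values were 5.24e-05 and 0.00223.

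**Figure D3:**
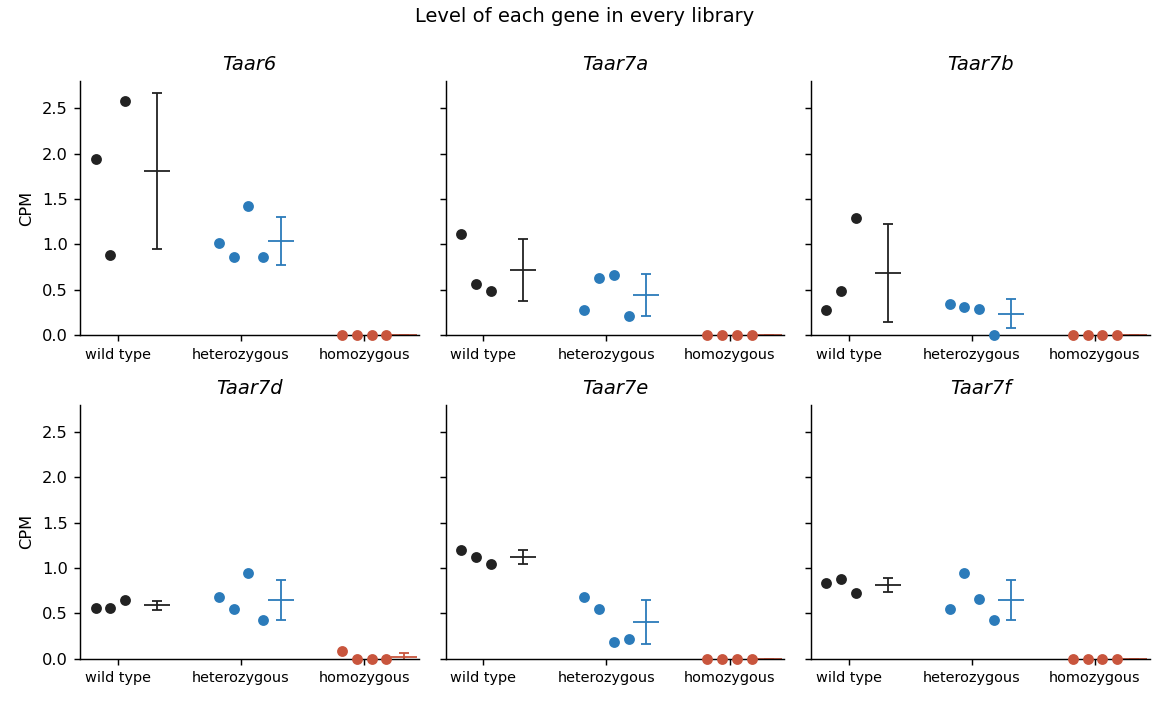
Level of each of the 6 genes in CPM (y axis) in the 3 wild type, 4 heterozygous and 4 homozygous libraries. Points are libraries in order of replicate number and the bar beside them is the mean ± SD. All homozygous points are at 0 except 1 for Taar7d at 0.0841 CPM, and Taar7e is the gene whose heterozygous points all lie below its wild type points.

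The heterozygous libraries were next compared with wild type, to ask how much transcript 1 intact copy of each gene gives. The sum of the 6 genes was lower in 4 of 4 heterozygous libraries than in any wild type library, at 59.7% of the wild type mean. Of the 16574 tested genes, 1.10% were without overlap in this direction. In edgeR the log2 fold change was -0.74 (SE 0.34, 95% confidence interval -1.47 to -0.0069), with an unadjusted p-value of 0.0482 and an adjusted p-value of 1.0, so it did not pass the threshold. For the Taar7 sum the edgeR estimate on the log2 scale was -0.71 (SE 0.36) and its unadjusted p-value 0.0730. Within set 1 the sum of the 6 genes was 60.6% of wild type and within set 2, which has 1 wild type library, 54.4%. Heterozygous replicate 4 had the lowest sum and the highest level of muscle markers, and without it the log2 fold change was -0.58. Relative to OR transcripts, the 6 genes had 4.60 ± 0.474 counts per 1000 OR counts in wild type and 2.99 ± 0.463 in heterozygous libraries (65.1%), again without overlap (exact permutation p-value 0.0571).

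Of the 3 genes that passed the filter, Taar7e was the furthest below wild type (36.3%). It had 10, 7, 2 and 2 counts in heterozygous replicates 1 to 4 (0.680, 0.549, 0.190 and 0.214 CPM) against 1.205, 1.12 and 1.05 CPM in wild type. It is the 1 gene of the 6 whose groups did not overlap, which was so in this direction for 1.10% of tested genes. Its log2 fold change was -1.38 (SE 0.49, edgeR unadjusted p-value 0.0205, adjusted 1.0), and 0.495% of tested genes were lower at an unadjusted p-value under 0.05. Over 18 alternative fits in edgeR or DESeq2 the unadjusted p-value of Taar7e was 0.0098 to 0.0637. It was not under 0.05 with the replicate number as a block or without wild type replicate 1. No gene of the 6 passed the adjusted threshold in edgeR or DESeq2, nor did any tested gene in edgeR (0%), while DESeq2 called 0.0139% of the genes it tested. In DESeq2 the unadjusted p-value was under 0.05 for Taar7e alone (0.0457).

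Taar7f was at 0.834, 0.882 and 0.727 CPM in wild type and at 0.544, 0.941, 0.663 and 0.428 CPM in heterozygous libraries. Its edgeR log2 fold change was -0.32 (SE 0.41), and the unadjusted p-value was 0.454. Taar6 was at 1.95, 0.882 and 2.58 CPM and at 1.02, 0.863, 1.42 and 0.856 CPM. The edgeR log2 fold change was -0.79 (SE 0.43), and the unadjusted p-value was 0.104. It was -1.12 without wild type replicate 2 (edgeR unadjusted p-value 0.0251) and -0.43 without wild type replicate 3 (0.394). Both genes overlapped between the groups. For Taar6 the ratio differed between the sets, at 80.5% of wild type in set 1 and 36.4% in set 2.

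Taar7a, Taar7b and Taar7d did not pass the filter. Taar7a had 4, 8, 7 and 2 counts in the heterozygous libraries (61.8% of wild type in mean CPM) and Taar7b 5, 4, 3 and 0 (34.3%). Taar7d had 10, 7, 10 and 4 counts, and its mean level of 0.651 ± 0.223 CPM was 111% of the wild type level of 0.588 ± 0.0504 CPM. All 3 overlapped with wild type.

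Levels were then divided by the number of intact copies (2 in wild type, 1 in heterozygous mice). On this scale a gene outside the cluster with an unchanged level lies near 200.2% of wild type, the median of all tested genes. The sum of the 6 genes was 2.87 ± 0.579 CPM per copy in wild type and 3.42 ± 0.893 in heterozygous libraries, or 119% (exact permutation p-value 0.4). Against the level of an equal yield per copy, the edgeR log2 difference was 0.26 (SE 0.34, 95% confidence interval -0.48 to 0.998, unadjusted p-value 0.458). With 1 library left out it lay between 0.11 (without wild type replicate 2; 0.16 without heterozygous replicate 3) and 0.42 (without heterozygous replicate 4; 0.40 without wild type replicate 3), and it was 0.45 with the replicate number as a block. The interval above corresponds to a yield per remaining copy of 0.718 to 1.997 times that of wild type. For the sum of the 8 other olfactory Taar genes (Taar2, Taar3, Taar4, Taar5, Taar8a, Taar8b, Taar8c, Taar9) the same difference was 0.84 (SE 0.42, unadjusted p-value 0.0704), at 178% of the wild type level per copy. Without division by copies this sum was 65.6% of wild type in set 1 and 108% in set 2.

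Per copy, the single genes ranged from 68.6 to 222% of wild type. Taar7d was at 222%, with 0.651 ± 0.223 against 0.294 ± 0.0252 CPM per copy, and 4 of 4 heterozygous libraries lay above every wild type library (exact permutation p-value 0.0571, the smallest possible, not adjusted for the 6 genes). On this scale 75.5% of all tested genes, nearly all of which keep both copies and do not include Taar7d, lay above the wild type libraries, which the division by copies brings about. In a fit without the low-count filter its log2 difference from an equal yield per copy was 1.13 (SE 0.50, edgeR unadjusted p-value 0.0421), and in DESeq2 1.15 (SE 0.67, unadjusted p-value 0.0850). Taar7f was at 158% (exact permutation p-value 0.114), Taar7a at 124% (0.514) and Taar6 at 115% (0.571). For Taar6 the log2 difference from an equal yield per copy changed sign among 18 alternative fits, from -0.126 to 0.561. Taar7e was at 72.5% (0.457) and Taar7b at 68.6% (0.571). The Taar7b value rests largely on wild type replicate 3, at 1.29 CPM before division against 0.278 and 0.481 CPM in replicates 1 and 2. Apart from Taar7d, all these genes overlapped between the genotypes per copy.

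**Figure D4:**
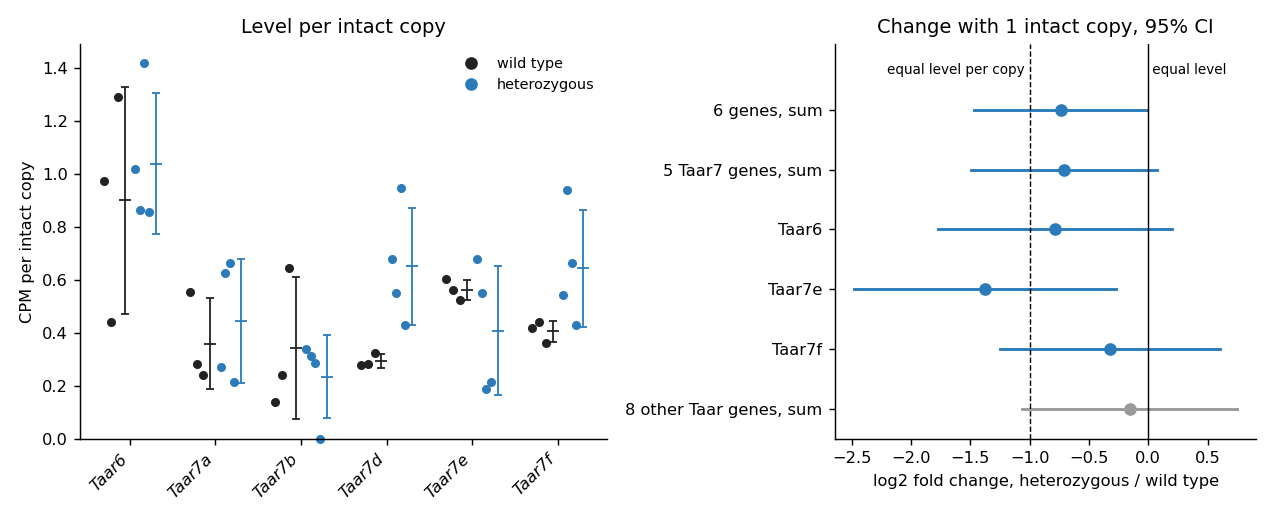
Left, CPM per intact copy of each gene in the 3 wild type (black, 2 copies) and 4 heterozygous (blue, 1 copy) libraries, with mean ± SD. The 4 heterozygous points of Taar7d lie above its wild type points. Right, edgeR log2 fold change of heterozygous against wild type with its 95% confidence interval, for 3 sums and the 3 tested genes. The solid line marks an equal level and the dashed line an equal level per copy, and the interval of the 6-gene sum runs from -1.47 to -0.0069.

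The makeup of the Taar total, the summed counts of the 14 olfactory Taar genes, was compared between wild type and heterozygous libraries as well. This total was 94, 87 and 119 counts in wild type and 96, 89, 68 and 31 counts in heterozygous libraries. The 6 genes held 68.1, 64.4 and 70.6% of it in wild type and 54.2, 55.1, 64.7 and 64.5% in heterozygous libraries. With 95% Wilson intervals of 61.9 to 78.0% for the deepest of these totals and 46.9 to 78.9% for the shallowest, single libraries are loosely determined, and intervals cover counting error only. The mean shares were 67.7 ± 3.13% and 59.6 ± 5.79%, a difference of -8.07 percentage points that did not hold up against the spread (exact permutation p-value 0.171). It was -1.62 points within set 1, -16.0 within set 2 and -4.32 when Taar5 was left out of the total (0.343).

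The 5 Taar7 genes held 47.1 ± 4.17% of the Taar total in wild type and 40.6 ± 2.34% in heterozygous libraries, without overlap (exact permutation p-value 0.0571, the smallest possible). Taar6 held 20.6 ± 7.28 and 19.0 ± 6.09% (0.686). Among the Taar7 genes, Taar7e held 13.8, 16.1 and 10.9% in wild type and 10.4, 7.87, 2.94 and 6.45% in heterozygous libraries. The lowest wild type and the highest heterozygous library are close, and the groups did not overlap (0.0571). Taar5, which is part of the total, had 4, 5 and 14 counts in wild type and 22, 16, 8 and 0 in heterozygous libraries. Shares of Taar7 and Taar7e in a total without Taar5 were not tested. Their lack of overlap therefore cannot be read as a change of these genes alone. Taar7d went the other way, from 7.05 ± 0.879 to 11.5 ± 2.98% (0.114). Shares of Taar7b were 7.84 ± 5.19 and 3.53 ± 2.38% (0.229), those of Taar7a 8.62 ± 3.89 and 7.48 ± 2.72% (0.686) and those of Taar7f 9.93 ± 2.56 and 11.3 ± 2.39% (0.457). These 6 single-gene p-values are not adjusted.

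Within the Taar7 counts alone, Taar7d made up 13.95, 15.6 and 15.4% in wild type and 27.0, 18.4, 34.5 and 33.3% in heterozygous libraries. All 4 heterozygous libraries were higher (exact permutation p-value 0.0571), yet the Wilson intervals of the single libraries overlapped, for example 8.01 to 27.5% in wild type replicate 3 and 19.9 to 52.7% in heterozygous replicate 3. Taar7e made up 28.8 ± 3.30 and 17.3 ± 8.26% of the Taar7 counts (0.114). Of the 51-base stretches, 46.8% of those of Taar7e and 71.1% of those of Taar7d are their own, and the part that reads shared between copies had in these shares was not tested.

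**Figure D5:**
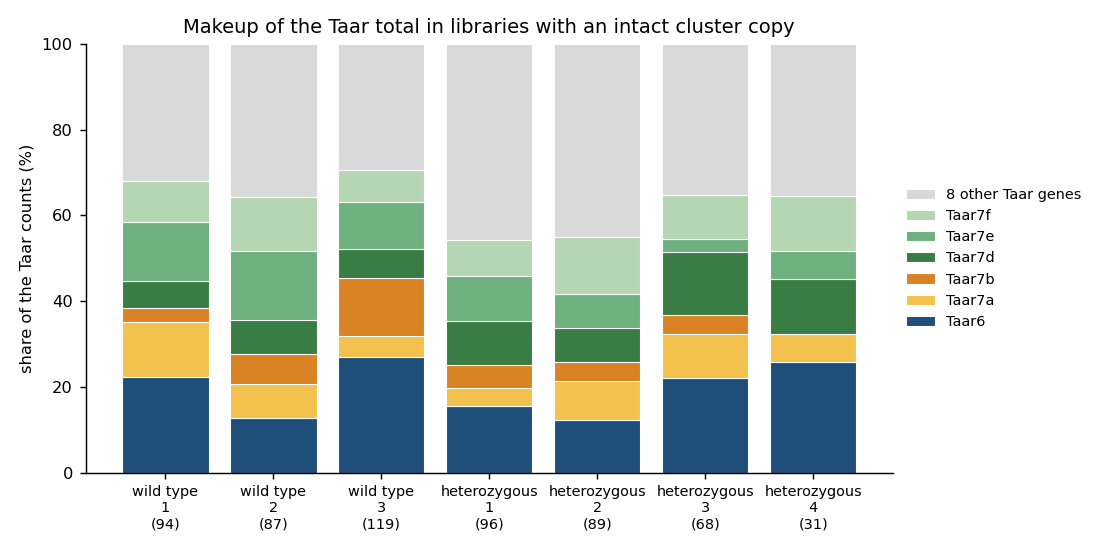
Share of the Taar counts in percent (y axis) held by each of the 6 genes and by the 8 other olfactory Taar genes in the 3 wild type and 4 heterozygous libraries, with the number of Taar counts of the library in brackets. The coloured part (6 genes) reaches 64.4 to 70.6% in wild type and 54.2 to 64.7% in heterozygous libraries.

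The genes described as more ventral, Taar6, Taar7a and Taar7b, were set against Taar7d, Taar7e and Taar7f. They made up 56.2, 42.9 and 64.3% of the counts of the 6 genes in wild type and 46.2, 46.9, 56.8 and 50.0% in heterozygous libraries. The means of 54.5 ± 10.8 and 50.0 ± 4.85% differed by less than the spread between libraries (exact permutation p-value 0.514). The difference of -4.49 points was 3.86 within set 1 and -17.7 within set 2. By the probe list, the ventral Taar7a and Taar7b made up 41.6 ± 7.95 and 37.4 ± 11.6% of the counts of these genes and the dorsal Taar7e and Taar7f (0.629). With Taar7d counted beside Taar6, Taar7a and Taar7b the difference was 4.11 points (0.571). Both were chosen after seeing the data. In CPM the sum of Taar6, Taar7a and Taar7b was 3.21 ± 1.22 in wild type and 1.72 ± 0.535 in heterozygous libraries (0.114), with overlap, and the sum of the other 3 genes was 2.53 ± 0.0924 and 1.70 ± 0.433 (0.0571), without overlap. That one pair of groups overlapped and the other did not is no test of a difference between them, and the share above is the value that was tested.

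Known zone markers were measured beside them. The ratio of the ventral markers Ncam2 and Nrp2 (an adhesion molecule and a semaphorin receptor) to the dorsal markers Nqo1 and Acsm4 (enzymes of dorsal OSNs and of the dorsal epithelium) was 0.938 to 1.95 in wild type, 1.18 to 2.09 in heterozygous and 1.19 to 2.73 in homozygous libraries. The ranges of the 3 genotypes overlapped (exact permutation p-value 0.743 for heterozygous against wild type). The ventral sum is mostly Nrp2, with a wild type mean of 236 CPM against 40.3 CPM for Ncam2. In homozygous against wild type libraries these 2 went opposite ways (log2 fold change 0.14 for Nrp2 and -0.26 for Ncam2). None of the 4 markers had an unadjusted p-value under 0.05 in any comparison (edgeR).

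Over the 11 libraries, the gene outside the Taar family whose log2 CPM followed the sum of the 6 genes most closely was 4930570G19Rik (Pearson r = 0.840 over 16570 genes searched), followed by Recql, a DNA helicase (0.840), Zdhhc24, a palmitoyltransferase (0.830), Olfr1252, an OR gene (0.830), and Col28a1, a collagen (0.823). The sum of the 8 other olfactory Taar genes, which the same deletion removes, had r = 0.960. These are descriptions over libraries that share the deletion, and the 5 genes did not pass the test between homozygous and wild type libraries (edgeR adjusted p-value 0.996 each). Olfr1252 was at 1.06 ± 0.388 CPM in wild type, 0.768 ± 0.186 in heterozygous and 0.335 ± 0.204 in homozygous libraries.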

How the data were processed

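The labels describe total RNA of whole MOE and libraries made with a directional kit after polyA selection. The submitters' processing notes name Trimmomatic (version 0.36), HISAT2 (version 2.1.0), featureCounts of Subread (version 1.6.2) and DESeq2 (version 1.20.0), with the mm10 (GRCm38) assembly. The authors deposited raw read counts per gene, which were used for every test, and a normalised signal per gene, deposited as counts divided by 1 size factor per library, which was used only to identify what the table held. Not given in the sources used here are the annotation, the strandedness of counting and what was done with reads of several positions.

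The 6 genes, the gene lists and the tests were chosen with earlier results of these data known. Named are the 6 genes, the other olfactory Taar genes as the rest of the Taar total, OSN signalling genes, zone markers and the 5 genes most correlated with the 6-gene sum. Marker lists for 6 other cell types were summed too.

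The main test was the quasi-likelihood F-test of edgeR (version 4.0.16, R version 4.3.3) with TMM scaling, filterByExpr by genotype (16574 genes kept) and 1 fit of the 3 genotypes over 11 libraries, with Benjamini-Hochberg adjustment over all features tested and a threshold of 0.05. In further fits the 6 genes, or the 5 Taar7 genes, were replaced by their sum. For the comparison per copy, an offset of the log of 1 of 2 copies entered the heterozygous libraries. There nearly every other gene differs from the offset, so only unadjusted p-values are given. Single values were compared with two-sided exact permutation tests (scipy, version 1.17.1). The smallest p-values possible are 0.0571 for 3 against 4, 0.0286 for 4 against 4 and 0.1 for 3 against 3 libraries. Shares carry 95% Wilson intervals, and ratios against 1 count the exact counting interval. Fits were tested on simulated data.

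Libraries of the same replicate number were checked for pairing by the correlation of their deviations from the group means. It was 0.326 to 0.415 for wild type with homozygous (3 pairs), -0.379 to -0.188 for wild type with heterozygous (3 pairs) and -0.585 to -0.396 for heterozygous with homozygous libraries (4 pairs). Differently numbered libraries of the same set correlated too. The value was 0.364 for wild type replicate 1 with homozygous replicate 2 and 0.467 for wild type replicate 3 with homozygous replicate 4. It was lower, at 0.243, for wild type replicate 2 with homozygous replicate 1. The positive values for wild type with homozygous libraries thus coincide with the 2 library sets and do not show pairing by number. The other groups share only a number. The main tests are unpaired, and a fit with the replicate number as a block was an alternative.

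Coding sequences and positions came from GENCODE (release M21, mm10) and were aligned with Biopython (version 1.88). The windows before the start codons are from RefSeq (GRCm38.p6), which held all 6 genes. DESeq2 (version 1.42.0), other scalings, no filter, OR counts as library size, library set, replicate block, fits of 2 genotypes and leaving out each library were the alternatives. Depth was 9239866 to 14632525 counts per library.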

Additional observations from a re-analysis of the deposited data

Results flagged for a closer look

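Values far from the other 3 libraries of a group of 4, by Dixon's criterion, were found in 5 of 21 groups tested. Chance gives about 1 in 20 for measured values, but this rate does not apply to 3 of the 5, which hold 0 in all libraries but one, and the remaining 2 restate 1 count of 0. Heterozygous replicate 4 had 0 CPM of Taar7b against 0.284 to 0.340 CPM in the other 3 libraries. Its share of Taar7b in the Taar total was likewise 0, against 4.41 to 5.21%. This library had the fewest total counts (9239866) and the fewest Taar counts (31) of the 7 libraries with an intact copy of the cluster. The other 3 come from 1 read. Homozygous replicate 1 had 0.0841 CPM of Taar7d against 0 in the other 3, and the sum of the 6 genes and the sum of Taar7 took the same value of 0.0841 CPM there for the same reason.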

How the results depend on the processing

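The 6-gene sum kept its direction and its side of the threshold under all 18 alternatives in both homozygous comparisons, with adjusted p-values of at most 0.0164 against wild type and 0.0255 against heterozygous libraries, both reached with the replicate block. The block changed no other call than the following. The Taar7 sum, homozygous against heterozygous (0.883% of the heterozygous level), lost its call with the replicate block (0.883%, adjusted p-value 0.0712) and in a fit of only these 2 genotypes (0.881%, adjusted p-value 0.0673). The cause was not tested. The number of the 6 genes called against wild type was 4 in DESeq2 (of 8 genes called in all) and 1 (Taar6, adjusted p-value 0.0439, the only gene called) with OR counts as the library size, in place of 0. Against heterozygous libraries it was 2 in DESeq2 (of 2 called in all) in place of 0. The 6-gene sum in heterozygous libraries against wild type had a log2 fold change of -0.89 to -0.55 and passed in none of 18 alternatives. With the replicate block it was -0.55 (unadjusted p-value 0.192). The share of the 6 genes was lower in heterozygous libraries by -1.62 points within set 1 and -16.0 within set 2. The share of the 6 genes was -4.32 points without Taar5 in the total. The share of Taar6, Taar7a and Taar7b among the 6 genes (-4.49 points) was -17.7 points within set 2 and changed sign within set 1 (3.86 points), with Taar6 alone as numerator (1.16), without wild type replicate 3 (0.42) and, in an alternative chosen after seeing the data, with Taar7d added (4.11). Without 1 library at a time it lay between -10.3 and 0.42 points. A library with an intact copy held 20 to 84 counts of the 6 genes, and the effect of depth on the single genes was not tested.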

Other observations

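No library held a count of Taar1, the family member outside the deleted part, which is mainly used in the brain (0 counts in all). Among the 8 other olfactory Taar genes, Taar8a also had 0 counts throughout. Of the 5 erythrocyte markers, Hba-a1, Hba-a2, Hbb-bs and Hbb-bt were listed at 0 in every library, while Alas2, the enzyme that opens heme synthesis in red cell precursors, was detected, at 8.09 to 19.1 CPM. Sums over the 3 genes of each further list overlapped between all genotypes. Sustentacular markers were at 1454 to 2057 CPM in wild type, 1008 to 1629 in heterozygous and 875 to 1731 in homozygous libraries. Immature OSN markers were at 636 to 918, 689 to 1082 and 710 to 912 CPM, horizontal basal markers at 52.0 to 138, 67.2 to 156 and 67.3 to 136 CPM and respiratory ciliated markers at 480 to 943, 529 to 1013 and 546 to 979 CPM. For 0 genes of these 4 lists was an unadjusted p-value under 0.05 in edgeR.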
